A study of Homo sapiens with 8 samples.

Results

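The 38 genes described here are NRF2 and the antioxidant, detoxification and transport genes commonly listed as its targets, followed in A549 cells exposed to indisulam, to SPHINX31 or to both. They were listed by name from that pathway, with no threshold on their values, but with earlier results of these data known. All 38 were found among the 60624 gene rows of the count files, and all 38 were among the 18661 genes with enough counts to be tested. By role they comprised 3 regulators, 8 genes of glutathione and thioredoxin metabolism, 13 genes of carbonyl and quinone detoxification, 4 genes of NADPH supply, 3 genes of heme and iron handling, 3 efflux transporters and 4 other targets.

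NRF2, encoded by NFE2L2, is a transcription factor that pairs with a small MAF protein and binds the antioxidant response element (ARE) in the regulatory sequence of its targets. In unstressed cells KEAP1 holds NRF2 and presents it to a cullin-3 ubiquitin ligase for degradation, and oxidants or electrophiles that modify KEAP1 release it. Its targets make glutathione and reduced thioredoxin, supply NADPH, reduce quinones and reactive carbonyls, and export conjugates. A549 is an established human lung adenocarcinoma line that is known to carry an inactivating KEAP1 mutation, so that its NRF2 pathway is active without treatment.

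Indisulam is a molecular glue that brings the splicing factor RBM39 to the DCAF15 ubiquitin ligase for degradation, and SPHINX31 inhibits SRPK1, a kinase of splicing factors. The study treated A549 cells with each compound to ask how their combination acts, and the 4 groups were untreated cells, cells given indisulam, cells given SPHINX31, and cells given both. The sample labels state 2 μM indisulam for 18 h. For A549 the methods text states 24 h with indisulam at 0.5 μM and SPHINX31 at 5 μM. It gives 2 μM and 18 h for a separate experiment on pancreatic cancer cells. Which values apply to these libraries could not be settled from the sources used here. Each group held 2 libraries that are technical replicates, so that every p-value measures only the spread between such libraries and not that between independent treatments. Whether untreated cells received the solvent is not given in the sources used here.

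The counts on genes ranged from 51727369 to 63186989 per library. Levels are given as CPM, counts per 1000000 of a library's size after adjustment by the TMM method. Of 10 lung epithelial markers 6 exceeded 1 CPM in at least 1 library, the keratins KRT8 and KRT18 among them at 3378 to 4103 CPM, while NKX2-1, SFTPB, SFTPC and NAPSA, markers of differentiated lung cells, stayed at 0 to 0.858 CPM. The summed epithelial markers were 9883 to 9961 CPM in untreated, 8976 to 9287 in indisulam, 8893 to 8908 in SPHINX31 and 8497 to 8584 CPM in combination libraries. Leukocyte, fibroblast and endothelial markers, 5 of each, summed to 1.64 to 9.87 CPM in every library, with 1 marker of each list above 1 CPM: CD14 at 6.83 to 9.76, COL1A1 at 3.23 to 4.65 and PECAM1 at 1.45 to 2.36 CPM. CD3E was at 0, and PTPRC, PDGFRA and CDH5 were at no more than 0.138 CPM. Reads outside annotated features made up 3.67% to 4.34% of all reads in the 4 libraries without indisulam and 4.49% to 5.88% in the 4 with it. The part of these values in the results on the NRF2 genes was not tested. Counts from bulk RNA cannot tell less RNA per cell from fewer cells that hold it.

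The ARE is where the sequence of these genes and their regulation meet, so the promoters were searched for its core, TGACNNNGC, on both strands of the 300 bases from 250 before to 50 after each RefSeq start site (GRCh38.p14). A promoter was listed for 27 of the 38 genes, and 9 of these held the core: CBR1, EPHX1, GCLM, GPX2, KEAP1, ME1, PGD, PIR and TXNRD1. Sequence outside these 300 bases was not searched, so that a gene without a match here may carry the element elsewhere. Counted by window, since some genes have several start sites, 10 of 34 windows of these genes (29.4%) and 13.3% of all 35116 windows held it. The 29 bases around 1 match are printed for each of 4 genes that behaved differently in the data: GCLM, which was higher in all 5 comparisons, GPX2, which was lower in all 5, PIR, which fell with indisulam, and KEAP1, which passed the test in none. All 4 genes lie on the minus strand, and the sequences are written 5′ to 3′ on the plus strand, which carries the motif. Capitals mark the ARE core.
GCLM, chr1:93909446-93909474: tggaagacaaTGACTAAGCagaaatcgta
GPX2, chr14:64942849-64942877: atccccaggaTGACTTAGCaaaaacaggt
KEAP1, chr19:10502784-10502812: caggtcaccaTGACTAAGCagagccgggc
PIR, chrX:15493289-15493317: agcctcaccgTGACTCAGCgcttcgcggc

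Positions are counted in the direction of transcription, opposite to the printed strand. So read, the core began at position -34 relative to the start site in GCLM, -122 in GPX2 and -31 in KEAP1. In PIR it began at position 27 downstream of the start. GCLM and KEAP1 carried the same 9 letters although their transcripts behaved differently. KEAP1 has another listed start site, whose window held no match, and the window shown held a further match at position -54. The core of the element bound by the aryl hydrocarbon receptor, GCGTG, which does not contain the ARE core and was searched for in the same windows, was held by 19 of the 34 windows (55.9%) and by 36.5% of all windows. A match describes the letters only.

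In untreated A549 cells many of these transcripts were among the most abundant of the cell. Together the 38 genes took 5.04% and 4.99% of all gene counts in the untreated libraries. The share was 4.64% and 4.78% with indisulam, 5.34% and 5.22% with SPHINX31 and 4.94% and 5.02% with the combination. Levels between genes were compared as CPM per kb of annotated exonic sequence. Here 18 of the 38 genes stood above the 99th percentile of the 18596 tested genes with a known length, and 31 stood above the 90th percentile. The median was 146 CPM per kb for the 38 genes and 2.25 for all of them.

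The order by level in untreated cells ran from FTL, the light chain of the iron store ferritin, at 7713 CPM per kb, to SRXN1, which encodes sulfiredoxin, at 0.127 CPM per kb. After FTL came AKR1B10, an aldo-keto reductase that clears reactive aldehydes (3894 CPM per kb), FTH1, the ferritin heavy chain (1724), the aldehyde dehydrogenase ALDH3A1 (1673) and its relative ALDH1A1 (1594). At the low end stood HMOX1, encoding heme oxygenase (10.2 CPM per kb), NFE2L2 itself (8.72), the carbonyl reductase CBR3 (8.29) and the carboxylesterase CES1 (1.33). FTH1, ALDH3A1 and ALDH1A1 stood close together, and the order of levels was not tested. The exonic length counts all annotated exons of a gene, so that the long annotated model of NFE2L2 (14975 bases) lowers its value on this scale. For SRXN1, 90.7% of the exonic bases also belong to a second gene model on the same strand, itself listed at 0 in all 8 libraries. Of genes lying wholly under exons of the same strand 4.5% had at least 10 counts, against 31.5% of genes with no overlap. The part of this overlap in the low counts of SRXN1 was not tested, so that its place in the order is uncertain.

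**Figure D1:**
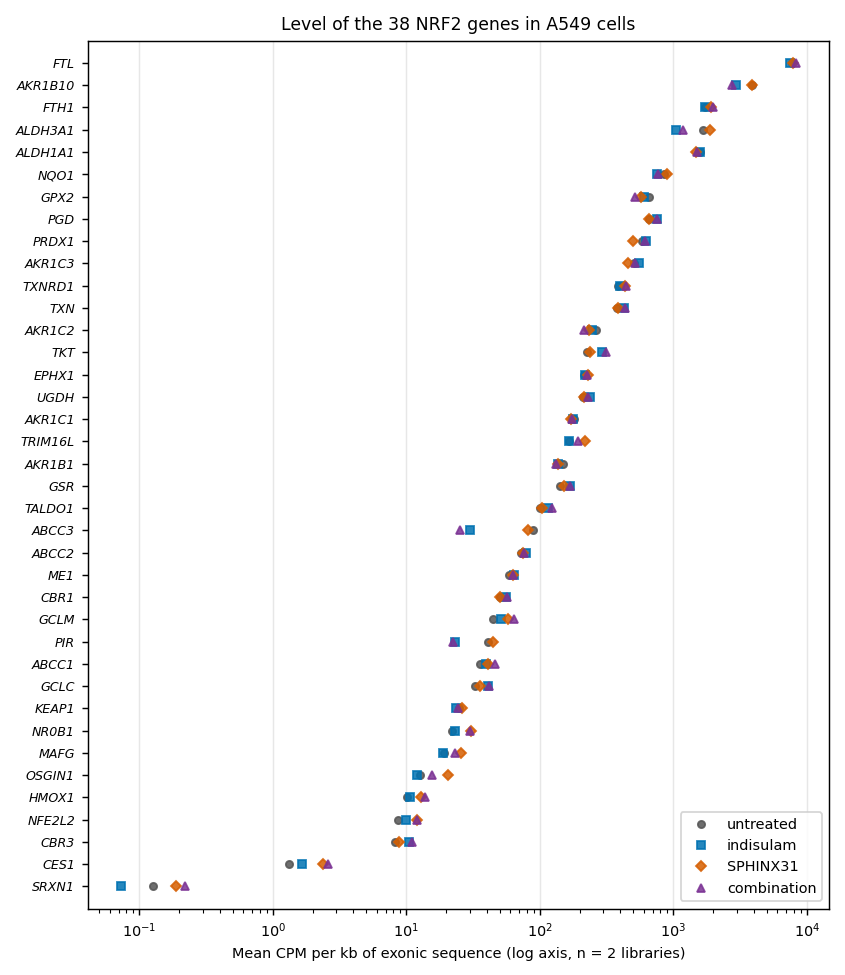
Mean level of each of the 38 genes in the 4 groups, in CPM per kb of exonic sequence on a log axis, with 1 symbol per group (n = 2 libraries each). Levels spread from 0.127 to 7713 CPM per kb in untreated cells, and only a few genes, such as ABCC3 and PIR, have symbols that stand clearly apart.

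Each gene was compared between groups with edgeR's quasi-likelihood test on the counts of all 8 libraries, with p-values adjusted by the Benjamini-Hochberg method over all 18661 genes. A gene is called higher or lower here when its adjusted p-value was under 0.05, and ± beside a log2 fold change is its standard error. With indisulam alone 13 of the 38 genes were higher and 6 lower, where 20.1% of all tested genes were higher and 23.5% lower. With SPHINX31 alone 11 were higher and 3 lower, against 4.94% and 3.67% of all tested genes. With the combination 20 were higher and 8 lower than in untreated cells, against 23.8% and 26.3% of all tested genes. The median log2 fold change of the 38 genes was 0.056 with indisulam, 0.083 with SPHINX31 and 0.18 with the combination, and that of all tested genes was -0.0041, -0.0064 and 0.00097. The median absolute log2 fold change was 0.144 for the 38 genes and 0.262 for all tested genes with indisulam, 0.119 and 0.137 with SPHINX31, and 0.251 and 0.301 with the combination. These 3 comparisons share the untreated libraries. In untreated cells the 38 genes had a median of 146 CPM per kb, and all tested genes with a known length had 2.25. The sets were not matched for level, and the part of level in these shares and medians was not tested.

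Each compound was also tested in the presence of the other, in comparisons that share no library with those of the compound alone. Adding indisulam to SPHINX31 left 13 genes higher and 10 lower than with SPHINX31 alone, where 23.4% and 26.5% of all tested genes were higher and lower. Adding SPHINX31 to indisulam left 11 genes higher and 3 lower than with indisulam alone, where 3.17% and 4.32% of all tested genes were higher and lower. Scaled by total counts alone, the last comparison gave 14 higher and 1 lower, and 1440 of all 18661 tested genes were called. The median log2 fold change of all tested genes was 0.048 with that scaling. With TMM scaling the median log2 fold changes of the 38 genes were 0.032 for added indisulam and 0.04 for added SPHINX31. Those of all tested genes were 0.00015 and 0.0029. The median for added SPHINX31 moved to 0.011 without indisulam replicate 1, 0.013 without combination replicate 2, 0.074 without combination replicate 1 and 0.083 without indisulam replicate 2, and that for added indisulam to 0.071 without combination replicate 1.

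Of the 13 genes higher with indisulam alone, 12 were also higher when it was added to SPHINX31, and all 6 that were lower were among the 10 lower there. Of the 11 genes higher with SPHINX31 alone, 10 were also higher when it was added to indisulam, as were 2 of the 3 lower genes among the 3 lower there. No gene was called in opposite directions in either pair. How often calls recurred over all tested genes was not counted, so this recurrence is not shown to be particular to these genes. Across the 38 genes, which are not independent replicates, Pearson's r between the log2 fold changes of indisulam without and with SPHINX31 was 0.863, and 0.633 without ABCC3 and PIR. Over all tested genes it was 0.846. For SPHINX31 without and with indisulam r was 0.763, and 0.926 without the thinly counted SRXN1. Over all tested genes it was 0.357, with thinly counted genes kept, so that 0.926 and 0.357 are not a like comparison. Whether the effect of one compound differed with the other present was tested as an interaction. None of the 38 genes passed, nor did any other gene (0% of 18661), and the lowest adjusted p-value among the 38 was 0.461, for OSGIN1. By an unadjusted p-value under 0.05, 4 of the 38 (NFE2L2, PRDX1, OSGIN1 and TRIM16L) and 8.49% of all genes differed, and DESeq2 called 0 of the 38 and 31 of all genes. The standard error of the interaction had a median of 0.0711 over the 38 genes on the log2 scale, and reached 0.606 for SRXN1.

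**Figure D2:**
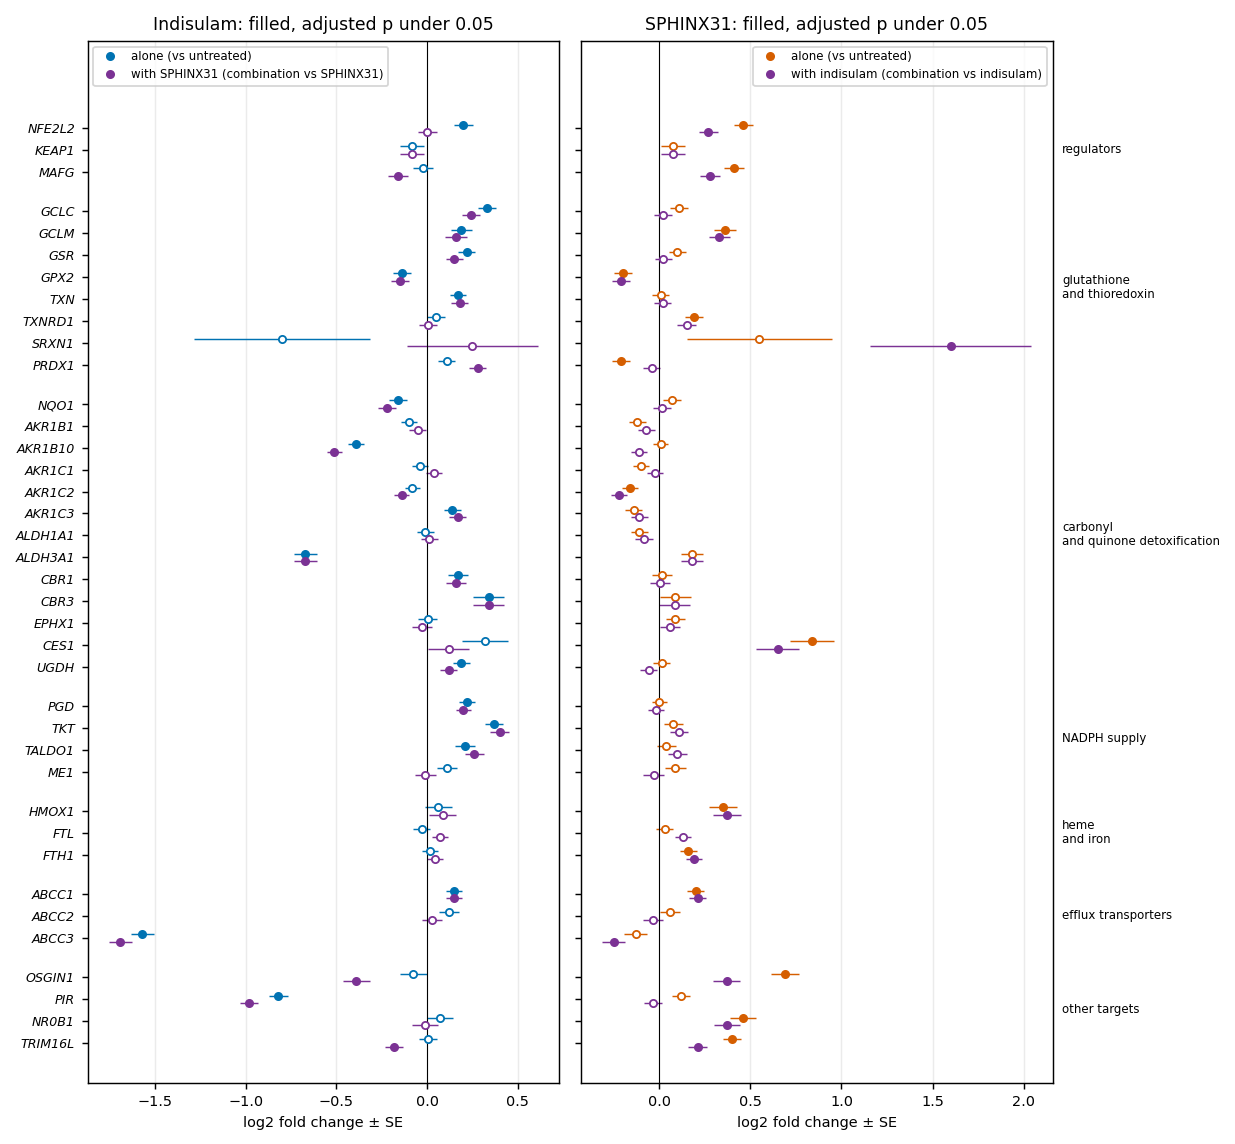
Log2 fold change of each of the 38 genes, with its standard error, for indisulam (left) and SPHINX31 (right), each alone and in the presence of the other compound; filled symbols passed an adjusted p-value of 0.05. On the left ABCC3, PIR, ALDH3A1 and AKR1B10 lie below 0 in both comparisons, and on the right NFE2L2, MAFG, CES1, OSGIN1, NR0B1 and TRIM16L lie above 0 in both.

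How far these counts rest on single libraries was examined by leaving out each in turn. The lone library of a group was then assumed to vary like the other groups. Over all tested genes, too, fewer were called in each comparison when a library of its groups was left out. The lost calls below are therefore not shown to be particular to these genes. The median with indisulam moved from 0.056 to 0.0049 without indisulam replicate 2 and to 0.026 without untreated replicate 2. The genes called higher with indisulam fell from 13 to 6 without untreated replicate 1, untreated replicate 2 or indisulam replicate 2. In all 8 such fits GCLC, GSR, PGD and TKT stayed higher, and AKR1B10, ALDH3A1, ABCC3 and PIR stayed lower, while the other 9 higher genes and GPX2 and NQO1 lost the call in at least 1 fit. For SPHINX31 alone the higher genes numbered 7 without untreated replicate 2 and at least 8 otherwise, with NFE2L2, MAFG, GCLM, CES1, OSGIN1, NR0B1 and TRIM16L higher in all 8 fits and TXNRD1, HMOX1, FTH1 and ABCC1 not, while the 3 lower genes fell to 0 without either untreated library and to 1 without either SPHINX31 library. The combination against untreated cells kept 17 of its 20 higher and 6 of its 8 lower genes in all fits, the exceptions being TXNRD1, CBR1, UGDH, NQO1 and AKR1B1. Added to SPHINX31, indisulam raised 7 genes without combination replicate 2 and lowered 6 without SPHINX31 replicate 1 or combination replicate 1. Added to indisulam, SPHINX31 raised 2 genes without combination replicate 2, 4 without indisulam replicate 1 and 6 without combination replicate 1. It then lowered 0, 0 and 1, so that no call of that comparison held in all 8 fits.

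The transcript of NRF2 itself rose with both compounds. NFE2L2 (chr2:177218667-177392756, minus strand) was at 129 and 132 CPM in untreated cells, 149 and 150 with indisulam, 177 and 182 with SPHINX31, and 172 and 188 with the combination. Both SPHINX31 libraries and both combination libraries stood above all others. The log2 fold change was 0.20 ± 0.0521 with indisulam (adjusted p = 0.00774), 0.46 ± 0.052 with SPHINX31 (adjusted p = 0.000171) and 0.46 ± 0.052 with the combination (adjusted p = 7.55e-06), a gain of 14.6%, 37.7% and 37.9%. With SPHINX31 already present, indisulam left NFE2L2 at a log2 fold change of 0.0025 ± 0.0517 (adjusted p = 0.973), while the test of that difference, the interaction, gave -0.19 ± 0.0734 with an adjusted p-value of 0.511. Of its exonic bases 23.4% lie opposite HNRNPA3 and 13.6% are shared with a non-coding gene on the same strand.

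MAFG, which encodes a small MAF partner of NRF2, was higher with SPHINX31. It was at 103 and 99.3 CPM in untreated cells and at 99.4 in both indisulam libraries, and at 140 and 128 with SPHINX31 and 118 and 123 with the combination. The groups with SPHINX31 did not overlap those without it. Its log2 fold change was 0.41 ± 0.0545 with SPHINX31 alone (adjusted p = 0.000531) and 0.28 ± 0.0547 when SPHINX31 was added to indisulam (adjusted p = 0.00791), but -0.022 ± 0.0548 with indisulam alone (adjusted p = 0.777). Indisulam added to SPHINX31 gave a log2 fold change of -0.16 ± 0.0543 (adjusted p = 0.0284), a call lost with DESeq2, with only the groups compared, and without SPHINX31 replicate 1 or combination replicate 1. KEAP1, the adaptor that marks NRF2 for degradation, was at 92.5 and 84.5 CPM in untreated cells, 78.6 and 88.5 with indisulam, 96.1 and 90.5 with SPHINX31, and 87.1 and 89.0 with the combination. It passed the test in none of the comparisons, with log2 fold changes between -0.084 and 0.076.

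**Figure D3:**
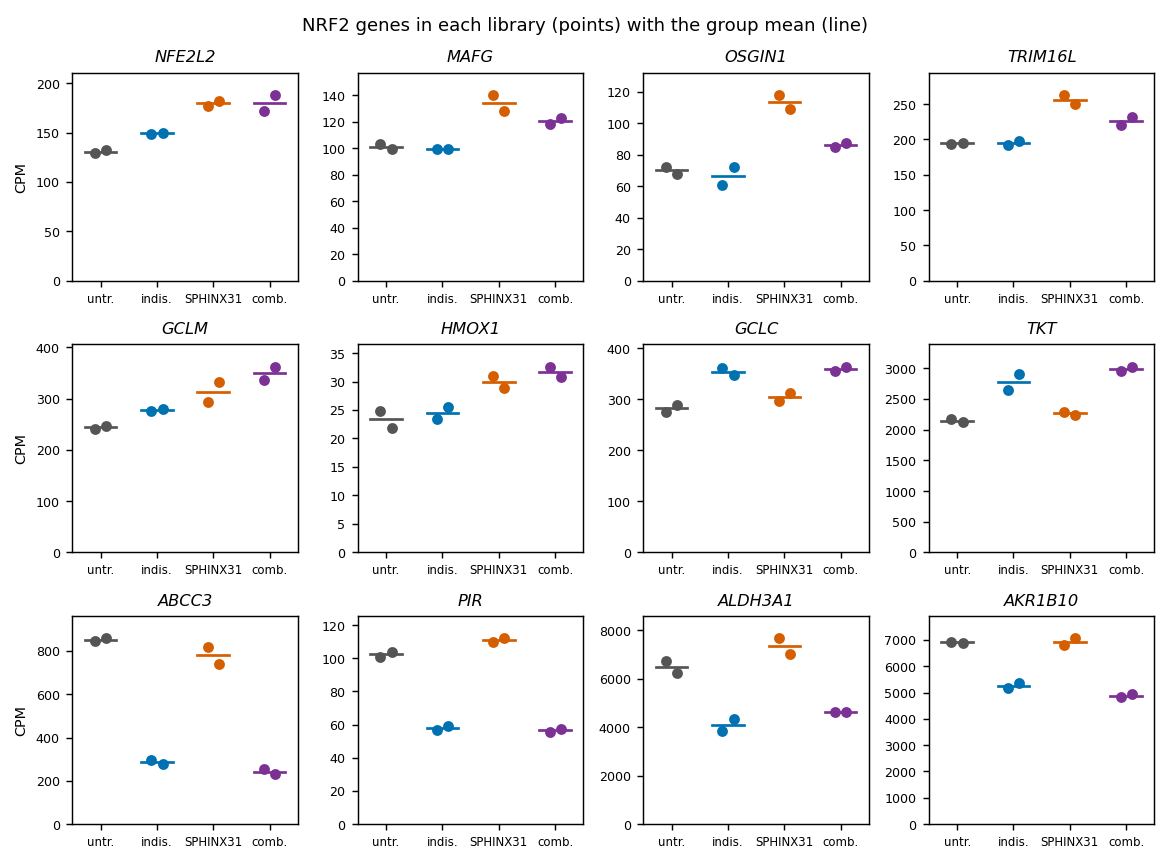
CPM of 12 of the genes in each library (points) with the mean of the 2 libraries of a group (line), each axis starting at 0. NFE2L2, MAFG, OSGIN1, TRIM16L, GCLM and HMOX1 are higher in the groups with SPHINX31, and ABCC3, PIR, ALDH3A1 and AKR1B10 are lower in the groups with indisulam.

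Among the glutathione and thioredoxin genes, both subunits of the enzyme that starts glutathione synthesis rose, while the glutathione peroxidase GPX2 fell. Of these 8 genes 4 were higher and 1 lower with indisulam, 2 higher and 2 lower with SPHINX31, and 5 higher and 1 lower with the combination. The shares of all tested genes were 20.1% higher and 23.5% lower, 4.94% and 3.67%, and 23.8% and 26.3% in the same order. GCLC, the catalytic subunit of glutamate-cysteine ligase, was at 276 and 289 CPM in untreated cells, 362 and 347 with indisulam, 297 and 313 with SPHINX31, and 355 and 364 with the combination. Here the libraries with indisulam stood above all others. The log2 fold change was 0.33 ± 0.0494 with indisulam (adjusted p = 0.000142), 0.11 ± 0.0494 with SPHINX31 (adjusted p = 0.193) and 0.35 ± 0.0494 with the combination (adjusted p = 6.23e-05). GCLM, the modifier subunit that raises the activity of GCLC, was at 240 and 247 CPM in untreated cells, 275 and 280 with indisulam, 294 and 332 with SPHINX31, and 337 and 362 with the combination. Its 4 groups did not overlap, and it was the 1 gene besides ABCC1 called higher in all 5 comparisons. Its log2 fold changes were 0.19 ± 0.0599 with indisulam (adjusted p = 0.0206), 0.36 ± 0.0598 with SPHINX31 (adjusted p = 0.00262) and 0.52 ± 0.0599 with the combination (adjusted p = 9.72e-06). The call for indisulam was lost without untreated replicate 1 or 2 or indisulam replicate 2, at values no lower than 0.15.

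GPX2, a selenium-dependent peroxidase of epithelial cells, was called lower in all 5 comparisons. Its libraries read 913 and 860 CPM untreated, 790 and 817 with indisulam, 792 and 748 with SPHINX31, and 692 and 699 with the combination, all below the untreated ones. It fell by 9.36% with indisulam, 13.1% with SPHINX31 and 21.5% with the combination (log2 fold change -0.35 ± 0.0494, adjusted p = 6e-05), and the call for indisulam was lost with RLE size factors, with DESeq2 and without untreated replicate 1 or either indisulam library (log2 fold change between -0.18 and -0.10). The call for SPHINX31 was lost without either untreated library or SPHINX31 replicate 2. PRDX1, a peroxiredoxin that removes peroxides, was at 988 and 967 CPM in untreated cells, 1035 and 1078 with indisulam, 823 and 870 with SPHINX31, and 1022 and 1031 with the combination. The SPHINX31 libraries were the lowest, and the log2 fold change was -0.21 ± 0.0468 with SPHINX31 (adjusted p = 0.0149) and 0.28 ± 0.0468 when indisulam was added to it (adjusted p = 0.000266). Of the exonic bases of PRDX1, 29.8% lie opposite MMACHC.

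GSR, glutathione reductase, was at 515 and 519 CPM in untreated cells, 595 and 612 with indisulam, 545 and 560 with SPHINX31, and 594 and 631 with the combination. Both indisulam groups lay above the other libraries, with log2 fold changes of 0.22 ± 0.0471 alone (adjusted p = 0.00177) and 0.15 ± 0.0471 beside SPHINX31 (adjusted p = 0.0183). Thioredoxin, TXN, rose by 0.17 ± 0.0456 with indisulam on the log2 scale (adjusted p = 0.00746) and had a log2 fold change of 0.0082 with SPHINX31. Its reductase TXNRD1 was called with SPHINX31 instead, at 0.19 ± 0.0502 (adjusted p = 0.0332), and had 0.048 with indisulam. SRXN1, which repairs over-oxidised peroxiredoxins, had 9 to 41 counts per library. At 0.155 and 0.216 CPM with indisulam and 0.717 and 0.402 with the combination, its log2 fold change between them was 1.6 ± 0.441 (adjusted p = 0.0435), a call lost when any 1 library of the untreated, indisulam or combination groups was left out.

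Of the 13 carbonyl and quinone genes 4 were higher and 3 lower with indisulam, shares near those of all tested genes (20.1% and 23.5%). ALDH3A1, which oxidises aromatic and medium-chain aldehydes, was at 6751 and 6222 CPM in untreated cells, 3839 and 4322 with indisulam, 7663 and 7006 with SPHINX31, and 4641 and 4605 with the combination. Every library with indisulam was below every library without it. ALDH3A1 fell by 37.1% with indisulam (log2 fold change -0.67 ± 0.0628, adjusted p = 2.3e-06) and fell by 37.0% when indisulam was added to SPHINX31 (log2 fold change -0.67 ± 0.0628, adjusted p = 1.67e-06). SPHINX31 alone gave 0.18 ± 0.0625 (adjusted p = 0.0983). AKR1B10 was at 6914 and 6894 CPM in untreated cells, 5165 and 5364 with indisulam, 6815 and 7059 with SPHINX31, and 4827 and 4930 with the combination. It too was lower in every library with indisulam, by -0.39 ± 0.0435 alone (adjusted p = 9.96e-06) and by -0.51 ± 0.0436 beside SPHINX31 (adjusted p = 7e-07) on the log2 scale. Its paralogue AKR1B15 is similar in sequence, so that some reads may not be placed with certainty.

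NQO1, the quinone reductase often used to read out NRF2 activity, moved less. It was at 2598 and 2475 CPM in untreated cells, 2199 and 2332 with indisulam, 2647 and 2675 with SPHINX31, and 2242 and 2335 with the combination. The libraries with indisulam lay below the others, and NQO1 fell by 10.7% with indisulam (log2 fold change -0.16 ± 0.0479, adjusted p = 0.014) and fell by 14.0% when it was added to SPHINX31 (-0.22 ± 0.0479, adjusted p = 0.002). The log2 fold change with SPHINX31 alone was 0.069 (adjusted p = 0.413).

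CES1, a carboxylesterase that hydrolyses esters and drugs, had the largest rise with SPHINX31 among the 38 genes, from a low level. It was at 4.03 and 3.77 CPM in untreated cells, 4.30 and 5.49 with indisulam, 6.66 and 7.33 with SPHINX31, and 7.87 and 7.39 with the combination, with 225 to 450 counts per library. The libraries with SPHINX31 stood above all others. The gain was 79.4% with SPHINX31 (log2 fold change 0.84 ± 0.12, adjusted p = 0.000904) and 95.5% with the combination (0.97 ± 0.119, adjusted p = 1.75e-05). A close pseudogene exists, so that the assignment of some reads is uncertain. CBR3, which reduces quinones and carbonyls, rose with indisulam from 8.07 and 8.47 CPM to 10.0 and 11.0, was at 8.88 and 8.72 with SPHINX31, and at 10.6 and 11.6 with the combination. Its log2 fold change was 0.34 ± 0.0862 with indisulam (adjusted p = 0.00607) and 0.34 ± 0.0856 beside SPHINX31 (adjusted p = 0.00526), and 71.1% of its exonic bases lie opposite the antisense gene CBR3-AS1.

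The 3 AKR1C genes, aldo-keto reductases that act on steroids and lipid aldehydes, did not move alike. AKR1C2 was at 1589 and 1601 CPM in untreated cells, 1532 and 1487 with indisulam, 1438 and 1426 with SPHINX31, and 1296 and 1297 with the combination. It was lowest with both compounds (log2 fold change -0.30 ± 0.0427, adjusted p = 6.64e-05) and lower with SPHINX31 alone (-0.16 ± 0.0427, adjusted p = 0.0394), a call lost in 9 of 17 alternative settings. AKR1C3 was higher with indisulam (0.14 ± 0.0475, adjusted p = 0.0286), a call lost without either untreated library or indisulam replicate 2. AKR1C1 passed the test in no comparison, with log2 fold changes from -0.10 to 0.038. These genes are near-identical over long stretches, and how reads were shared between them is uncertain. Of the remaining genes of this role, CBR1 and UGDH, which makes the UDP-glucuronate used for glucuronidation, were higher with indisulam (0.17 ± 0.0543 and 0.19 ± 0.0467). AKR1B1 was called in 1 of the 5 comparisons, lower with the combination than in untreated cells (-0.17 ± 0.0453, adjusted p = 0.00638), and ALDH1A1 and the epoxide hydrolase EPHX1 passed in none.

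Of the 4 NADPH-supplying genes the 3 of the pentose phosphate pathway rose with indisulam, and none of the 4 was called with SPHINX31. Of all tested genes 20.1% were higher with indisulam, and 4.94% were higher and 3.67% lower with SPHINX31. The lack of calls with SPHINX31 is therefore near the share over all genes. TKT, transketolase, was at 2169 and 2126 CPM in untreated cells, 2639 and 2907 with indisulam, 2287 and 2246 with SPHINX31, and 2956 and 3026 with the combination. The libraries with indisulam stood above the rest, and the gain was 29.1% with indisulam (log2 fold change 0.37 ± 0.0505, adjusted p = 6.18e-05) and 32.0% when it was added to SPHINX31 (0.40 ± 0.0505, adjusted p = 2.35e-05). PGD, 6-phosphogluconate dehydrogenase, which yields NADPH directly, went from 2196 and 2164 CPM to 2538 and 2542 with indisulam, was at 2195 and 2167 with SPHINX31, and at 2470 and 2546 with both. Its log2 fold changes were 0.22 ± 0.0426 (adjusted p = 0.000965) with indisulam and 0.00095 with SPHINX31. TALDO1, transaldolase, was at 295 and 291 CPM in untreated cells, 322 and 355 with indisulam, 308 and 294 with SPHINX31, and 360 and 363 with the combination. The change was 0.21 ± 0.0532 with indisulam (adjusted p = 0.00657) and 0.26 ± 0.0532 beside SPHINX31 (adjusted p = 0.00106). Malic enzyme, ME1, was not called in any comparison.

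Of the 3 heme and iron genes HMOX1 and FTH1 were called higher with SPHINX31 and none was called with indisulam. Of all tested genes 4.94% were higher with SPHINX31, and 20.1% were higher and 23.5% lower with indisulam. HMOX1, which degrades heme and is a common marker of oxidative stress, was at 24.9 and 21.9 CPM in untreated cells, 23.4 and 25.6 with indisulam, 30.9 and 28.8 with SPHINX31, and 32.6 and 30.8 with the combination. The SPHINX31 groups did not overlap those without it, and the log2 fold change was 0.35 ± 0.0759 alone (adjusted p = 0.012) and 0.37 ± 0.0759 beside indisulam (adjusted p = 0.00919), against 0.063 ± 0.0768 for indisulam alone (adjusted p = 0.531). The SPHINX31 call was lost without untreated replicate 2 or SPHINX31 replicate 1, with values between 0.26 and 0.45 over all settings. FTH1 was higher by 0.16 ± 0.045 with SPHINX31 (adjusted p = 0.0446), a call lost in 10 of 17 settings, and by 0.20 ± 0.045 with the combination (adjusted p = 0.00197), a call kept in all. Of its exonic bases 63.2% lie opposite BEST1, and ferritin pseudogenes are many. FTL passed the test in no comparison, with log2 fold changes between -0.030 and 0.13.

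Efflux transporters gave the largest difference of all 38 genes. ABCC3 (chr17:50634777-50692253, plus strand), which exports bile acids and glucuronide conjugates, was at 847 and 858 CPM in untreated cells, 296 and 277 with indisulam, 820 and 740 with SPHINX31, and 254 and 230 with the combination. Each library with indisulam was far below each without it. ABCC3 fell by 66.4% with indisulam (log2 fold change -1.57 ± 0.0627, adjusted p = 2.44e-09). It fell by 69.0% when indisulam was added to SPHINX31 (log2 fold change -1.69 ± 0.063, adjusted p = 7.32e-10) and fell by 71.6% with the combination against untreated cells (-1.82 ± 0.0632, adjusted p = 4.7e-10). Over all alternative settings its log2 fold change with indisulam stayed between -1.62 and -1.52. ABCC1, which exports glutathione conjugates, went the other way, with log2 fold changes of 0.15 ± 0.0456 with indisulam (adjusted p = 0.0188), 0.20 ± 0.0455 with SPHINX31 (adjusted p = 0.014) and 0.36 ± 0.0455 with both (adjusted p = 2.39e-05). The call for indisulam was lost without any 1 of the untreated and indisulam libraries (values between 0.12 and 0.17), and that for SPHINX31 without either untreated library or SPHINX31 replicate 1. ABCC2, a related apical exporter, passed in no comparison, with values from -0.032 to 0.12.

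Among the 4 remaining targets, 3 rose with SPHINX31 and PIR fell with indisulam. Of all tested genes 4.94% were higher with SPHINX31 and 23.5% were lower with indisulam. OSGIN1, an oxidative stress-induced growth inhibitor, was at 72.3 and 68.0 CPM in untreated cells, 60.7 and 72.5 with indisulam, 118 and 109 with SPHINX31, and 84.7 and 87.6 with the combination. It was highest with SPHINX31 alone, by 61.3% (log2 fold change 0.69 ± 0.0746, adjusted p = 0.000116), and lower again when indisulam was added (-0.39 ± 0.0741, adjusted p = 0.000648), with -0.075 ± 0.0753 for indisulam alone (adjusted p = 0.445). The interaction was -0.32 ± 0.106 and missed the threshold (adjusted p = 0.461). TRIM16L, annotated as a transcribed pseudogene of the ubiquitin ligase gene TRIM16, showed 194 and 195 CPM untreated, 192 and 198 with indisulam, 263 and 250 with SPHINX31, and 220 and 232 with the combination. The log2 fold change was 0.40 ± 0.0498 with SPHINX31 (adjusted p = 0.000319) and -0.18 ± 0.0497 for added indisulam (adjusted p = 0.00733). TRIM16L shares sequence with TRIM16, so that some reads may be misplaced. In the gene models used here, 100% of its exonic bases also belong to a second, non-coding entry of the same name on the same strand. The part of this overlap in its counts was not tested.

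NR0B1, an orphan nuclear receptor that acts as a transcriptional repressor, was at 44.9 and 43.0 CPM in untreated cells, 43.3 and 49.1 with indisulam, 62.8 and 58.0 with SPHINX31, and 57.2 and 62.6 with the combination. Libraries with SPHINX31 did not overlap those without it, and the log2 fold change was 0.46 ± 0.0712 alone (adjusted p = 0.00169) and 0.37 ± 0.0714 beside indisulam (adjusted p = 0.0067). PIR, an iron-binding nuclear protein known as pirin, was at 101 and 104 CPM in untreated cells, 56.6 and 59.3 with indisulam, 110 and 112 with SPHINX31, and 55.8 and 57.4 with the combination. The 4 libraries with indisulam lay between 55.8 and 59.3 CPM, apart from the other libraries. PIR fell by 43.5% with indisulam (log2 fold change -0.82 ± 0.0511, adjusted p = 5.85e-08) and fell by 49.2% when it was added to SPHINX31 (-0.98 ± 0.0511, adjusted p = 8.69e-09).

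Counted over the 3 comparisons with untreated cells, NFE2L2, GCLM and ABCC1 were called higher and GPX2 lower with each compound and with both. A further 9 genes were higher with indisulam and the combination but not called with SPHINX31 (GCLC, GSR, TXN, CBR1, CBR3, UGDH, PGD, TKT and TALDO1), and 5 were lower there (NQO1, AKR1B10, ALDH3A1, ABCC3 and PIR). Another 8 were higher with SPHINX31 and the combination but not called with indisulam (MAFG, TXNRD1, CES1, HMOX1, FTH1, OSGIN1, NR0B1 and TRIM16L). Of the 38 genes 8 were not called in any of these 3 comparisons. The same patterns were not counted over all tested genes. That a gene passed with one compound and not with the other does not show that the compounds differed, which was not tested directly.

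NRF2 is itself one of a wider set of regulators, and 17 partners and controllers outside the 38 genes were counted. With indisulam 3 of the 17 were higher and 3 lower, with SPHINX31 6 were higher and 1 lower, and with the combination 8 were higher and 3 lower. All tested genes had 20.1% and 23.5%, 4.94% and 3.67%, and 23.8% and 26.3%, so that the counts with indisulam were no higher than over all genes. SQSTM1, whose protein p62 sequesters KEAP1, was at 855 and 851 CPM in untreated cells, 814 and 852 with indisulam, 1379 and 1274 with SPHINX31, and 1266 and 1248 with the combination. Its rise went with SPHINX31, with log2 fold changes of 0.64 ± 0.0496 alone (adjusted p = 8.79e-06) and 0.59 ± 0.0496 beside indisulam (adjusted p = 5.3e-05). MAFF, another small MAF gene, was higher with SPHINX31 (0.67 ± 0.113, adjusted p = 0.00293), and MAFK, also of this family, was higher with indisulam (0.55 ± 0.0653, adjusted p = 1.88e-05). With indisulam the related factor NFE2L3 also rose (0.66 ± 0.0797, adjusted p = 2.06e-05), and BTRC, a ubiquitin ligase subunit that can target NRF2, fell by 0.72 on the log2 scale (adjusted p = 1.17e-06). RBX1 was the 1 partner lower with SPHINX31 (-0.33 ± 0.0629, adjusted p = 0.0062), and was higher with indisulam (0.29 ± 0.0619, adjusted p = 0.00216). TRIM16 was higher with SPHINX31 (0.31 ± 0.0586, adjusted p = 0.00552).

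A second list of 35 NRF2 targets outside the 38 genes, of which 33 could be tested, had 12 higher and 11 lower genes with indisulam, 8 higher and 0 lower with SPHINX31, and 14 higher and 10 lower with the combination. Over all tested genes the shares were 20.1% and 23.5% with indisulam, 4.94% and 3.67% with SPHINX31, and 23.8% and 26.3% with the combination. SLC7A11, the cystine importer that supplies cysteine for glutathione, was at 587 and 636 CPM in untreated cells, 129 and 116 with indisulam, 660 and 742 with SPHINX31, and 139 and 146 with the combination. Its libraries with indisulam stood far below the others, with log2 fold changes of -2.32 ± 0.0704 alone (adjusted p = 2.07e-10) and -2.3 ± 0.0702 beside SPHINX31 (adjusted p = 1.99e-10). Also lower with indisulam alone were NECAB2 (-1.84 ± 0.119), TXNIP (-1.5 ± 0.182) and CYP4F11 (-1.05 ± 0.0497). With SPHINX31 alone UGT1A1 (0.57 ± 0.0958) and UGT1A6 (0.53 ± 0.105), glucuronosyltransferases that share their last exons so that reads there cannot be told apart, and IDH1, a cytosolic source of NADPH (0.42 ± 0.0505), were higher.

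Of 22 other antioxidant enzymes 20 could be tested, and 4 were higher and 4 lower with indisulam, 0 higher and 1 lower with SPHINX31, and 5 higher and 6 lower with the combination. With indisulam and with the combination these counts were close to the shares over all tested genes (20.1% and 23.5%, and 23.8% and 26.3%), and with SPHINX31 all tested genes had 4.94% and 3.67%. GSS, which completes glutathione synthesis after the GCLC and GCLM step, was at 63.8 and 59.9 CPM in untreated cells, 26.1 and 25.8 with indisulam, 61.8 and 61.4 with SPHINX31, and 20.5 and 18.1 with the combination. It was lower in each library with indisulam, with a log2 fold change of -1.25 ± 0.0649 alone (adjusted p = 1.21e-08), the opposite direction to GCLC and GCLM. PRDX2 and TXNRD3 were also lower with indisulam (-0.86 ± 0.07 and -0.82 ± 0.0849), and catalase, CAT, was higher (0.36 ± 0.0519).

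NQO1 and ALDH3A1 belong also to the battery of the aryl hydrocarbon receptor, a ligand-activated factor known for inducing cytochrome P450 genes. Of 10 genes listed for it, these among them, 9 could be tested. With SPHINX31 alone 4 were higher and 0 lower, with indisulam 2 higher and 4 lower, and with the combination 5 higher and 3 lower. All tested genes had 4.94% and 3.67% with SPHINX31, 20.1% and 23.5% with indisulam, and 23.8% and 26.3% with the combination. CYP1B1, a cytochrome P450 that oxidises estrogens and aromatic compounds, was at 110 and 121 CPM in untreated cells, 98.1 and 97.4 with indisulam, 639 and 636 with SPHINX31, and 339 and 395 with the combination. The log2 fold change with SPHINX31 was 2.46 ± 0.0703 (adjusted p = 3.38e-10), and 1.91 ± 0.0695 when it was added to indisulam (adjusted p = 8.1e-09). CYP1A1, the classical target, was at 0.227 and 0.0839 CPM in untreated cells, 0.172 and 0.157 with indisulam, 7.29 and 5.74 with SPHINX31, and 1.57 and 2.03 with the combination, with a log2 fold change of 5.36 ± 0.269 for SPHINX31 (adjusted p = 1.75e-07) that rests on few untreated reads. TIPARP, an early target that feeds back on the receptor, was higher by 1.66 ± 0.0729 with SPHINX31 (adjusted p = 4.6e-08). Against these values NQO1 and ALDH3A1, the members of both sets, had log2 fold changes of 0.069 and 0.18 with SPHINX31 and passed the test in neither case.

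**Figure D4:**
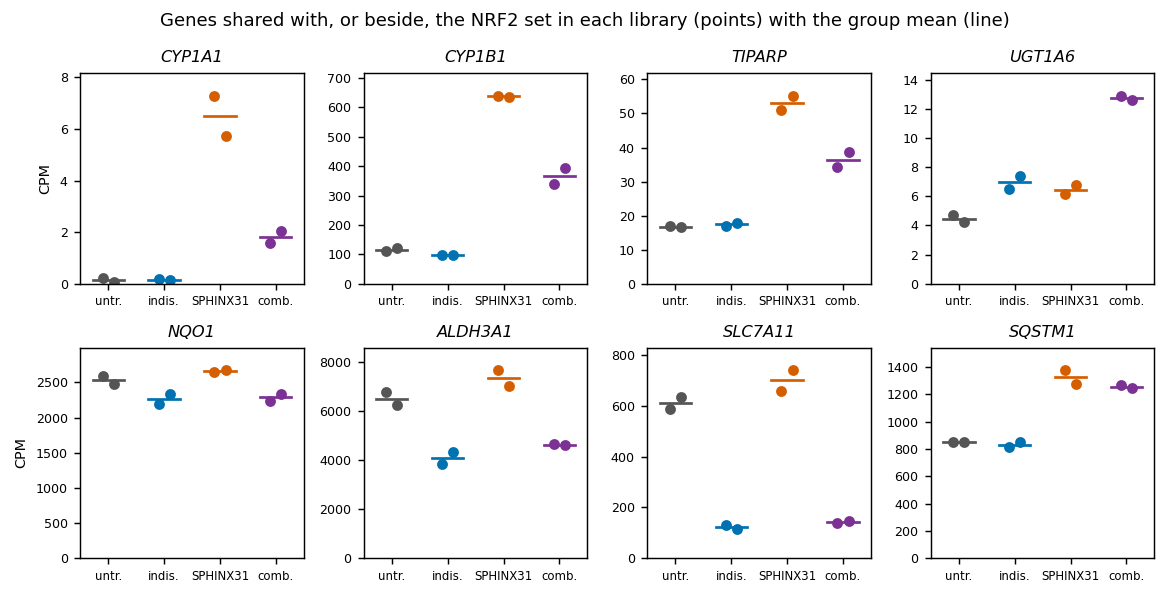
CPM in each library (points) with the group mean (line), each axis starting at 0, for 4 genes of the aryl hydrocarbon receptor battery, for NQO1 and ALDH3A1, which belong to both sets, and for SLC7A11 and SQSTM1 from the wider NRF2 pathway. CYP1A1, CYP1B1, TIPARP and SQSTM1 are higher in the groups with SPHINX31, and ALDH3A1 and SLC7A11 are lower in the groups with indisulam.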

How the data were processed

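The authors sequenced stranded poly(A) RNA libraries as paired-end reads of 150 bp and deposited raw counts per Ensembl gene for 8 libraries, together with unassigned reads. Per the labels' processing notes, HISAT2 2.2.1, HTSeq and GRCh38 were used, and the annotation release is not given in the sources used here. Of 770 genes lying wholly under exons of the opposite strand 28.2% had at least 10 counts, against 31.5% of genes with no overlap and 4.5% of genes wholly under exons of the same strand, so the counts were read as strand-specific. Rows of unassigned reads were left out of library sizes.

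Counts of all 8 libraries were filtered with filterByExpr, scaled with TMM and tested with the quasi-likelihood test of edgeR 4.0.16 in R 4.3.3 (group means, 4 residual degrees of freedom), with Benjamini-Hochberg adjustment over 18661 genes and a threshold of 0.05. CPM are counts per 1000000 of the TMM-adjusted library size. Depth was 51727369 to 63186989 gene counts per library. The pipeline was tested on simulated data: for indisulam against untreated cells, 62.2% of 98 genes changed by 0.5 on the log2 scale, 75.5% of 98 changed by 1 and 7 of 17870 unchanged genes were called, among 18066 genes. Gene models were from GENCODE release 44 and promoters from RefSeq.

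The members and the lists were chosen with earlier results of these data known. All members are accounted for. Values per library are given for the 3 regulators and, per comparison, for the called members that moved most (up to 6 higher and 6 lower). The measure was the absolute log2 fold change. Genes of further lists were named from the up to 4 per list and comparison that moved most by it, though not all of these. KRT8 and KRT18 fall outside this rule. Alternatives were RLE factors, total counts, DESeq2 1.42.0, looser and stricter filters, only the groups compared, a replicate block, each library left out, and a threshold of 0.01. A GC correction and an exchanged block were added after the data were seen.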

Additional observations from a re-analysis of the deposited data

Results flagged for a closer look

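Reads that were not assigned to a gene were recorded beside the counts and enter no comparison above. Reads outside annotated features exceeded both untreated libraries (3.94% and 4.34% of all reads) in both indisulam libraries, of which the lower held 4.49%, and in both combination libraries, of which the lower held 4.87%. Reads without a unique alignment were 5.48% and 5.41% in untreated libraries, and the lower library held 5.53% with indisulam and 5.66% with the combination. Reads overlapping several genes were 5.22% and 4.88% in untreated libraries, and the lower indisulam library held 5.87%. These were set apart because both libraries of a treated group lay above both untreated ones, and none of these differences was tested.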

How the results depend on the processing

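Of 98 calls of single genes over the 5 comparisons, 87 held at the threshold of 0.05 in every alternative fit that kept all libraries and 51 also held with each library left out, and none changed direction. At the threshold of 0.01, 67 of the 98 held. Where a count or median moved, the cause was not tested beyond the smaller number of libraries or the threshold itself. Fewer of all tested genes were also called in each comparison when a library of its groups was left out. At an adjusted p-value under 0.01, 7 genes were higher and 0 lower with SPHINX31, 7 higher for indisulam added to SPHINX31, and 7 higher and 1 lower for SPHINX31 added to indisulam. Scaled by total counts alone, 1 gene was lower for SPHINX31 added to indisulam, and the median log2 fold change was 0.12 with SPHINX31 and 0.24 with the combination. Over all tested genes that scaling gave medians of 0.028 and 0.054, and of 0.048 for SPHINX31 added to indisulam. With each library left out, the genes higher with indisulam numbered 6 to 15. With SPHINX31 7 to 10 were higher and 0 to 3 lower. For indisulam added to SPHINX31 7 to 12 were higher and 6 to 10 lower, and for SPHINX31 added to indisulam 2 to 13 were higher and 0 to 3 lower. The median log2 fold change then ranged from 0.0049 to 0.067 with indisulam, 0.16 to 0.20 with the combination 0.023 to 0.071 for indisulam added to SPHINX31 and 0.011 to 0.083 for SPHINX31 added to indisulam, which total counts alone put at 0.085. Whether the replicate numbers pair the libraries was not settled, and the main fit used no pairing. Deviations of same-numbered libraries correlated at 0.483 between untreated and SPHINX31. They correlated at -0.609 between untreated and indisulam and at -0.53 between indisulam and SPHINX31. Between the combination and the other groups the values were 0.0332 to 0.203. With a replicate block 13 genes were higher and 6 lower with indisulam, 10 and 2 with SPHINX31, and 20 and 8 with the combination. With the numbers of the indisulam group exchanged, an alternative chosen after seeing the data, the block gave 16 and 6, 12 and 3, and 20 and 8. The counts behind SRXN1, 9 to 41 per library, limit what can be said of that gene.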
